A study of Mus musculus with 6 samples.

Results

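The second step of myotube formation in culture, from 36 h to 72 h of differentiation, was described through the genomic regions that carried H3K27ac at either time. C2C12 is an immortal line of mouse myoblasts, the proliferating precursors of muscle fibres, which leave the cell cycle, fuse and assemble contractile fibres once growth signals are reduced. The 2 libraries compared were H3K27ac chromatin immunoprecipitations followed by sequencing (ChIP-seq) from C2C12 cells labelled 36 h and 72 h of differentiation. Both groups are the same line with no genotype or drug named in their labels, and each library was made from DNA pooled over 4 ChIP assays. The deposited lists held 89717 peaks at 36 h and 97144 at 72 h. Overlapping peaks of the 2 lists (1 bp or more) were merged into 108296 regions, out of 112926 regions when the list of proliferating cells was merged as well. A region was classed as shared when it held peaks of both lists, and otherwise as 72 h only or 36 h only. With 1 library a stage, the spread between cultures is unknown and no difference below carries a test. The intervals given cover counting error only. Positions are those of the mm9 mouse assembly (first base 1). No mm9 annotation was used here, so regions carry no gene names and the muscle identity of the cells was not checked against marker loci.

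H3K27ac, acetylation of lysine 27 on the tail of histone H3, is deposited by the acetyltransferases p300 and CBP and removed by histone deacetylases. It marks nucleosomes beside active promoters and enhancers, and long stretches of closely spaced acetylated sites often surround genes that are highly expressed in a cell type. In differentiating muscle, factors of the MyoD and MEF2 families recruit these acetyltransferases to regulatory DNA.

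Most of the length under peaks lay in regions called at both times (90.2% at 36 h, 84.7% at 72 h), and the later list had the larger part of the rest. Such regions were counted whole, also where only part of them was covered at both times. Of the 108296 regions, 55142 (50.9%, 95% Wilson interval 50.6 to 51.2%) were shared. A further 32562 regions (30.1%, 29.8 to 30.3%) were called at 72 h only and 20592 (19.0%, 18.8 to 19.2%) at 36 h only, which is 1.58 times as many regions on the later side. The unshared regions were short, so their part of the acetylated length was smaller than their part of the number. Shared regions had a median width of 769 bp (quartiles 471 to 1375 bp), compared with 239 bp (177 to 351 bp) for 72 h only and 215 bp (169 to 305 bp) for 36 h only regions. A shared region joins peaks of both lists. The single peaks in shared regions had median widths of 477 bp at 36 h and 560 bp at 72 h. Regions called at 72 h only held 15.3% of the 72 h length under peaks, and those called at 36 h only held 9.76% of the 36 h length.

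Length under peaks was 56.0 Mb at 36 h and 63.7 Mb at 72 h, a difference of 7.69 Mb. It can be divided by class. Regions of 72 h only added 9.72 Mb, regions of 36 h only took away 5.47 Mb, and shared regions were longer by 3.44 Mb in sum at 72 h (54.0 against 50.6 Mb). The 72 h list had more peaks in all, but not among peaks reaching a −log10 q of 5. There it had 59273 peaks against 61316 in the 36 h list, while its length under peaks was 1.096 times as great. The −log10 q is the authors' own scale for each list, so the same cut-off need not be equally strict in both. The ratio of 72 h only to 36 h only regions also depended on the strength demanded of a peak, and was 1.09 among peaks with a −log10 q of at least 5 and 1.24 when both lists held the same number of peaks. No read totals were used here. From the peak statistics, the ChIP depth of the 36 h library was solved to be 1.09 times that of the 72 h library, and bringing 36 h to the depth of 72 h left the ratio at 1.59.

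**Figure D1:**
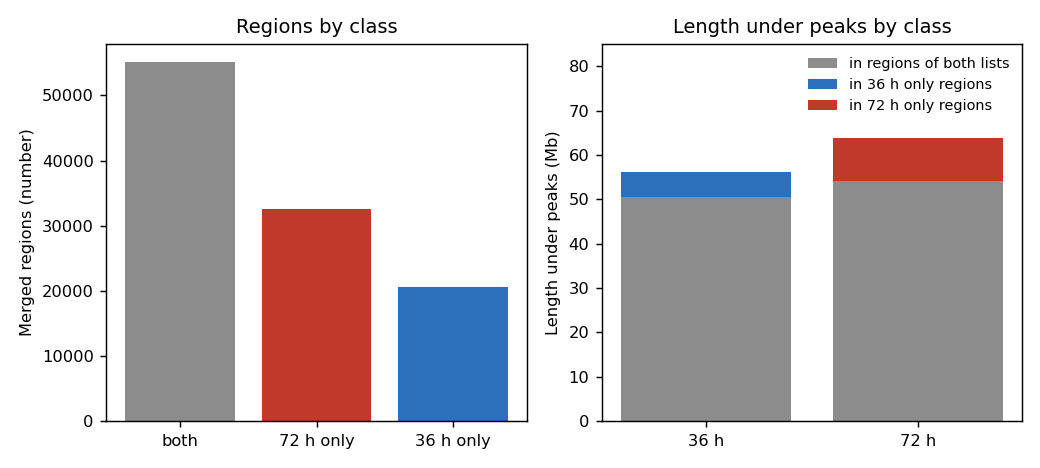
Number of merged regions in each class (left panel) and length under peaks in Mb at each time, divided into shared regions (grey) and regions of that time only (coloured, right panel). Regions of 1 time make up 30.1% and 19.0% of the number but 15.3% and 9.76% of the length.

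Sharing followed peak strength closely. Peaks were ranked within their own list by the authors' −log10 q and divided into deciles, which are of slightly unequal size because of tied values. In the strongest decile, 9058 of 9060 peaks of 36 h and 9743 of 9754 peaks of 72 h lay in shared regions. In decile 6, counted from the weakest, the share was 82.9% at 36 h and 69.1% at 72 h, and in decile 1 it was 53.04% and 39.33%. In both of these deciles the 72 h share was the lower one. The lowest share at 72 h was in decile 2 (35.2%), not in the weakest. Median width also rose along the deciles. It was 190 bp at 36 h and 191 bp at 72 h in decile 1, and 1482 and 1616 bp in decile 10. Sharing needed an overlap of only 1 bp, and the part of width in it was not tested.

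**Figure D2:**
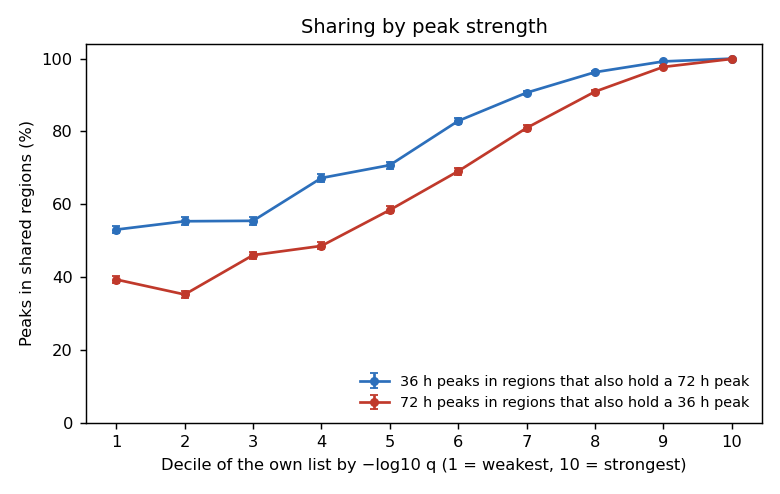
Share of peaks that lay in regions holding a peak of both times (vertical axis, percent), by decile of the own list in order of −log10 q, for 36 h (blue) and 72 h (red), with 95% Wilson intervals. Both curves approach 100% in the strongest decile, and the 72 h curve starts at 39.33% and the 36 h curve at 53.04% in the weakest.

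Regions of 1 time were mostly weak. Peaks of 72 h only had a median fold enrichment of 4.58 over local background and 15 sequenced fragments over the summit (solved from the deposited fold and p), against 7.10 and 26 for shared 72 h peaks. At 36 h the medians were 4.52 and 15 for unshared and 6.64 and 24 for shared peaks. A −log10 q under 5 was found for 67.5% of the 72 h only and 61.9% of the 36 h only peaks. Strong exceptions existed in each list. A −log10 q of at least 20 was reached by 177 peaks of 72 h only and 57 of 36 h only, and the highest folds were 18.5 and 16.9. These scales are the authors' own for each list, so the values do not compare the times.

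The strongest regions called at 72 h only stood beside other acetylated sites. The first in −log10 q (51.6, above 95.6% of the 72 h list) lay at chr15:81769489-81770760, with a fold of 16.4 and 86 summit fragments. It was a peak of 1272 bp that began 169 bp from the nearest 36 h peak. The region at chr2:113462492-113463693 had the highest fold of the class, 18.5, with 61 fragments. It overlapped a peak of proliferating cells, and the nearest 36 h peak lay 167 bp away. A region at chr6:84185611-84186983 (fold 16.5, 58 fragments) had 12 regions of 72 h only, itself included, and none of 36 h only in the window reaching 25 kb to each side. The other two of the first 5 were at chr1:186482549-186483763 (fold 18.2) and at chr15:95824088-95826558 (fold 14.6), each overlapping a proliferation peak. Of these 5 regions, 3 thus overlapped a peak of proliferating cells and had no peak at 36 h, against 17.1% of all 72 h only regions. The 5 were 1202 to 2471 bp wide, against a median of 239 bp for the class. The part of width and strength in this overlap was not tested.

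Among 11664 regions of 72 h only with no 36 h peak within 5 kb, the strongest was at chr18:16576851-16577715, with a fold of 15.9, 49 fragments and no 36 h peak for 173 kb. The window reaching 25 kb to each side held 4 regions, itself included, all of 72 h only. A region at chr5:16299825-16300938 (fold 15.0, 46 fragments) was 28.2 kb from the nearest 36 h peak and overlapped a proliferation peak. Its window held 6 regions of 72 h only, itself included, and no other class. The remaining 3 were at chr15:77810297-77810976 (fold 16.2), chr15:75851120-75852103 (fold 14.8) and chr2:20676874-20677543 (fold 15.6), all between 7.69 and 8.05 kb from a 36 h peak. In these windows, 72 h only regions numbered 4 to 8, the named region included, and 36 h only regions at most 1.

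On the 36 h side, the strongest region was at chr14:21415395-21416556, with a fold of 16.9 and 53 summit fragments, 358 bp from the nearest 72 h peak. Its window held 7 regions of 36 h only, itself included, and none of 72 h only. A narrow site of 626 bp at chr9:62014312-62014937 had a fold of 15.9 and 50 fragments and lay 43.8 kb from any 72 h peak. At chr14:32859072-32860502, a peak with a fold of 15.0 and 47 fragments was 30.9 kb from the nearest 72 h peak. The other two, at chr8:126052268-126053089 (fold 15.0) and chr12:11227663-11228348 (fold 14.2), had a 72 h peak 253 and 196 bp away. No region of 72 h only lay in the windows of these 5 regions. Of the 5056 regions of 36 h only with no 72 h peak within 5 kb, the 5 strongest had folds of 12.2 to 15.9. They included 3 that overlapped a proliferation peak, at chr11:8910707-8911196 (fold 13.8), chr1:12634756-12635025 (fold 13.5) and chr9:19379791-19380055 (fold 12.2). Of all 5056 such regions, 11.2% overlapped a proliferation peak. The 3 overlapping sites were 265 to 490 bp wide and the others 626 and 1431 bp. The 5 isolated 72 h only sites were 670 to 1114 bp wide.

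Regions of 72 h only were farther from the other list than regions of 36 h only. The median distance to the nearest peak of the other time was 1685 bp for 72 h only and 738 bp for 36 h only. Within 1 kb of the other list lay 43.8% (43.3 to 44.4%) of 72 h only and 54.5% (53.8 to 55.2%) of 36 h only regions. Beyond 50 kb were 2748 regions of 72 h only (8.44%) and 584 of 36 h only (2.84%). Among peaks with a −log10 q of at least 5, regions with no peak of the other list within 5 kb numbered 7186 of 16136 at 72 h only and 5335 of 14756 at 36 h only, compared with 11664 and 5056 for all peaks. Distance and strength were hardly related, since the median fold of 72 h only regions was 4.53 within 1 kb and 4.58 beyond 5 kb, and that of 36 h only regions was 4.47 and 4.75. The 72 h list, against which 36 h only regions were measured, had 1.08 times as many peaks, and the part of this in the distances was not tested.

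Spacing within a list was nearly the same at both times. Neighbouring peaks were separated by a median of 583 bp at 36 h and 634 bp at 72 h, with upper quartiles of 10.8 and 11.1 kb. Gaps of up to 1 kb made up 54.2% and 53.1% of all gaps, and those from 1 to 5 kb only 12.7% and 13.1%, so that peaks came in tight groups set apart by longer distances. Peaks were slightly wider at 72 h across the distribution. The median was 376 bp at 36 h and 393 bp at 72 h, the upper quartile 732 and 767 bp and the 99th percentile 3464 and 3657 bp. The ratio of the median widths was 1.045, compared with 1.138 between lists of equal number and 1.156 among peaks with a −log10 q of at least 5. Peaks over 5 kb numbered 265 and 336. The longest single peak measured 18604 bp at 36 h and 22349 bp at 72 h.

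Peaks that were separate at 36 h were more often joined at 72 h than the reverse. Among the 55142 shared regions, 39210 (71.1%) held 1 peak of each list. In 8048 (14.6%) a single 72 h peak spanned 2 or more 36 h peaks, and in 5085 (9.22%) a single 36 h peak spanned 2 or more 72 h peaks, a ratio of 1.58. The joined regions had a median of 1079 bp under peaks at 36 h and 1403 bp at 72 h. In the 39210 one-to-one regions, the 72 h peak reached past the 36 h peak by a median of 11 bp on either side. It was longer at both ends in 31.3%, shorter at both ends in 21.3% and shifted in 46.4%. Summits of these pairs lay close together. They were a median of 61 bp apart (quartiles 25 to 126 bp), and 79.6% were within 147 bp, the width of the shortest peaks in the lists. Summits of 820 pairs (2.09%) were more than 500 bp apart.

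The strength of shared regions was compared through the summit signal, defined as the fragments over the summit minus the local background, in units of the genome background of the library. This signal was a median of 1.15 times as high at 72 h as at 36 h (log2 ratio 0.21, quartiles −0.12 to 0.56), and was higher at 72 h in 66.7% of shared regions. Length under peaks had a median ratio of 1.05, with 57.1% of regions longer and 42.6% shorter at 72 h. A signal at least 2-fold higher at 72 h was found in 4328 shared regions (7.85%), and at least 2-fold lower in 830 (1.51%). When the ratios were centred on their median, these counts were 2291 and 1777. Length was at least 1.5-fold greater at 72 h in 10929 regions (19.8%) and at least 1.5-fold smaller in 6312 (11.4%).

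Both measures moved together across regions. Signal and length differed in the same direction in 69.5% of shared regions (Spearman's rho 0.56 over 55142 regions, as a description across regions that share both libraries). They were at least 2-fold greater together in 1970 regions and at least 2-fold smaller together in 430, and opposed at that size in 2. Signal at least 2-fold higher was most frequent below the middle and at the middle of the order of strength, and rarer at both ends. In order of mean signal, the share at least 2-fold higher at 72 h was 3.84%, 11.7%, 13.0%, 8.69% and 1.98% from the weakest to the strongest of 5 equal groups. The shares at least 2-fold lower were 1.43%, 2.87%, 2.33%, 0.825% and 0.0725% in the same order. Shared regions had to be called at both times, and the part of this in the values of the weakest group was not tested.

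**Figure D3:**
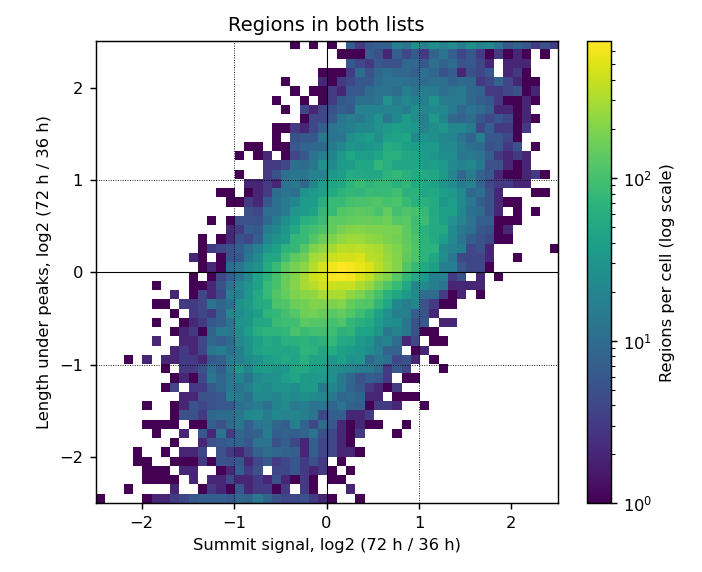
Shared regions by the log2 ratio of summit signal (horizontal axis) and of length under peaks (vertical axis) of 72 h over 36 h, coloured by the number of regions per cell on a log scale, with values beyond 2.5 drawn at the edge. Solid lines mark equality and dotted lines 2-fold differences, and the cloud rises from lower left to upper right with its centre slightly above equality in signal.

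Neighbouring shared regions had similar ratios. For adjacent shared regions up to 1 kb apart, Spearman's rho between their log2 signal ratios was 0.45 over 21403 pairs. It was 0.27 at 1 to 5 kb, 0.19 from 5 kb to 12500 bp, 0.14 from there to 50 kb and 0.03 beyond 200 kb. Pairs share both libraries, and close pairs also share a local background, so these values describe the libraries.

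The shared regions with the largest ratios of signal were taken from those with at least 30 summit fragments at either time. Ranking by a ratio favours extreme counts, and the regions are given as a description. At chr6:84187086-84188197, 12 fragments at 36 h faced 68 at 72 h, a depth-scaled fragment ratio of 6.17 (exact 95% interval 3.31 to 12.52). Peaks covered 191 bp of it at 36 h against 1112 bp at 72 h. The region began just past the end of the strong 72 h only site on chromosome 6. At chr11:119469065-119470567 the counts were 12 and 61 fragments (ratio 5.53, 2.95 to 11.3) and the lengths 184 and 1503 bp. At chr1:94566207-94566956 they were 20 and 100 fragments (5.44, 3.34 to 9.29). The lengths there were 617 and 750 bp, closer to each other than at the other four regions. A region at chr13:83215903-83216932 had 11 and 46 fragments (4.55, 2.32 to 9.75), with no peak of proliferating cells for 715 kb. The region at chr2:132030692-132032210, also among the 5, had 9 and 44 fragments and overlapped a proliferation peak.

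In the opposite direction, a region at chr7:90236151-90237580 stood at 57 fragments at 36 h against 11 at 72 h, a depth-scaled ratio of 0.21 (0.0993 to 0.405), and its length under peaks was 1430 and 187 bp. At chr5:152089049-152090534, the counts were 65 and 15 fragments (0.251, 0.133 to 0.445), and the single 36 h peak stood against 3 short 72 h peaks. The others were at chr15:103132033-103134787 (52 and 15 fragments), chr17:25792826-25794513 (53 and 13) and chr19:47375687-47378199 (47 and 12). Since these 10 regions were chosen by their ratio, their intervals are given for scale and support nothing.

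Differences in length picked out other regions. The largest surplus at 72 h was at chr3:97630224-97636420, where 6 peaks covering 1981 bp at 36 h were matched by 1 peak of 6197 bp, with 25 and 73 summit fragments. At chr7:139888726-139897312, 8 peaks of 36 h (4991 bp) were matched by 1 peak of 8587 bp at 72 h. The region at chr5:31294362-31298358 had 409 and 3997 bp, that at chr9:50971732-50976167 had 465 and 4436 bp, and that at chr17:6126862-6131189 had 1207 and 4328 bp. The largest deficit was at chr11:94796078-94811253. There 1 unbroken 36 h peak of 15110 bp was matched by 20 separate peaks covering 10206 bp at 72 h. Its summit had 59 and 49 fragments, a ratio of 0.904 (0.606 to 1.34), an interval that includes equality. Of the next 4, the regions at chr11:62808447-62812317 (3871 and 832 bp) and chr19:44976152-44982203 (6052 and 3143 bp) also had lower summits, with ratios of 0.493 (0.291 to 0.813) and 0.484 (0.286 to 0.796). The last 2 lay at chr15:77613719-77616900 (3182 and 529 bp) and chr14:26535533-26539079 (3547 and 975 bp), with summit ratios of 0.573 (0.316 to 1.01) and 0.559 (0.304 to 0.997).

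Long clusters were formed by stitching peaks of both lists across gaps of up to 12500 bp. At least 10 kb under peaks at either time was found in 1371 clusters, of which 1012 passed that length at both times, 261 at 72 h only and 98 at 36 h only. Lengths were a median of 1.07 times as great at 72 h (quartiles 0.918 to 1.28), and 855 clusters (62.4%) were longer at 72 h. A length at least 1.5-fold greater at 72 h was found in 173 clusters (12.6%) and at least 1.5-fold smaller in 50 (3.65%). These 1371 clusters accounted for 1.59 Mb, or 20.6%, of the difference in length between the lists, and held 41.6% of the length under peaks at 36 h and 39.0% at 72 h. Stitched within 1 list, 1057 clusters of 36 h and 1241 of 72 h had 10 kb under peaks, compared with 652 and 722 at a stitching gap of 5 kb.

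Clusters with the largest surplus at 72 h had at most 9.41 kb under peaks of proliferating cells. Some of those with the largest deficit also lay below this length (4.9, 7.02 and 8.24 kb). The surplus clusters were chosen by their gain in length, so their counts of 72 h only regions and of higher signal are partly set by the choice. At chr7:56574077-56659265, length under peaks was 13.5 kb at 36 h and 34.4 kb at 72 h, none of it under a proliferation peak. The cluster held 37 regions of 72 h only, 2 of 36 h only and 16 shared regions, and the summit signal was higher at 72 h in all 16 (median log2 ratio 0.99). At chr19:24709834-24810934, the lengths were 13.2 and 32.5 kb, with 27 regions of 72 h only, none of 36 h only and higher signal in 19 of 19 shared regions. A cluster at chr13:46583478-46643516 had 11.2 and 26.8 kb, with 20 regions of 72 h only and higher signal in 12 of 12. Those at chr10:57773086-57868848 (31.4 and 48.3 kb) and chr7:139862394-140016135 (39.5 and 54.5 kb) were already long at 36 h. They held both directions, with higher signal in 23 of 28 and 16 of 22 shared regions, against 66.7% of all shared regions.

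Clusters with the largest deficit at 72 h held many regions of 36 h only and few or none of 72 h only. They were chosen by their loss of length, so these counts and those of lower signal are partly set by the choice. Over all shared regions, signal was lower at 72 h in 33.3%. At chr19:7113075-7254291, length under peaks was 39.1 kb at 36 h and 20.3 kb at 72 h, with 23 regions of 36 h only against 1 of 72 h only and lower signal in 21 of 25 shared regions. At chr6:4436613-4487488, the lengths were 26964 and 12694 bp, with 25 regions of 36 h only and none of 72 h only. The 8 shared regions there had a median log2 ratio of −0.10, close to equality, and the highest summit had 105 fragments at 36 h and 84 at 72 h. Proliferation peaks covered 26.5 kb of this cluster, and 4.9 to 18.1 kb of the other deficit clusters named here. At chr6:30561975-30654865, 27.6 and 13.6 kb lay under peaks, with 21 regions of 36 h only and none of 72 h only. At chr4:144570806-144625876 the lengths were 25.1 and 11.7 kb, and signal was lower in 9 of 9 shared regions. The cluster at chr11:11708225-11795957 had 54.9 and 40.5 kb, with 17 regions of 36 h only and none of 72 h only.

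**Figure D4:**
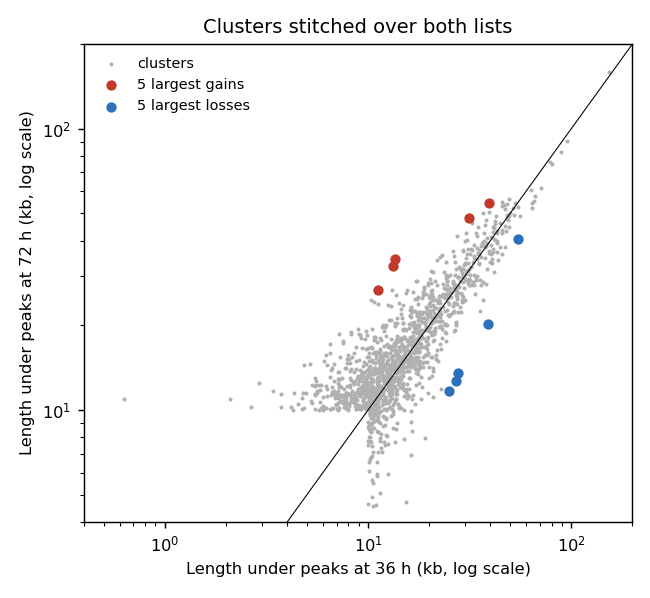
Length under peaks at 36 h (horizontal axis) and 72 h (vertical axis), in kb on log axes, of 1371 clusters stitched over both lists with at least 10 kb at either time. The line marks equality, and the coloured points are the 5 largest surpluses (red) and deficits (blue) at 72 h, of which 3 surpluses had 11.2 to 13.5 kb at 36 h.

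Regions of 1 time were found in runs, as were peaks of each whole list. Stitched across gaps of up to 12500 bp among themselves, 24.6% of the 72 h only and 31.4% of the 36 h only regions stood alone. Runs of 5 or more held 26.1% and 22.8%. Of all peaks stitched the same way, only 6399 of 97144 at 72 h and 6028 of 89717 at 36 h stood alone. Unshared regions were fewer than all peaks and were stitched without their shared neighbours. This by itself leaves more of them alone, so their shares cannot be compared with those of whole lists. The 36 h only regions were also fewer than the 72 h only regions, and the part of number in their shares was not tested. Runs were not particular to unshared regions. The largest 72 h only run, with 37 regions, was in the chromosome 7 cluster with the greatest surplus. The next, of 32 regions, was at chr2:76942321-77025816, where 32.0 kb lay under 72 h peaks and 18.0 kb under 36 h peaks. Signal was higher at 72 h in 15 of its 16 shared regions, against 66.7% of all shared regions. A run of 22 lay at chr18:61474121-61531992 (26.7 and 17.9 kb). The largest 36 h only run, of 25 regions, was in the chromosome 6 cluster that began at 4436613. Runs of 22 regions were at chr4:144577252-144625876 and at chr7:119368474-119439056. The last of these also held 10 regions of 72 h only, and 12 of its 26 shared regions had higher and 14 lower signal at 72 h.

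The list of proliferating cells did not enter the classes and gave a separate readout. A proliferation peak overlapped 54.4% (54.0 to 54.8%) of shared regions, 17.1% (16.7 to 17.5%) of 72 h only regions and 13.0% (12.6 to 13.5%) of 36 h only regions. Shared regions were also the widest, with the medians given above, and the part of width in these shares was not tested. Within 5 kb of a proliferation peak the order of the unshared classes was the opposite, with 48.0% of 72 h only and 54.5% of 36 h only regions. Seen from the 57101 proliferation peaks, 71.6% overlapped peaks of both later times, 10.4% a peak of 72 h but not of 36 h, 4.77% a peak of 36 h but not of 72 h, and 13.2% neither. Among shared regions, those at least 2-fold higher in signal at 72 h overlapped a proliferation peak in 47.3% (45.8 to 48.8%), those at least 2-fold lower in 34.0% (30.8 to 37.3%) and the rest in 55.3% (54.9 to 55.8%). This overlap also moved with strength, from 25.8% in the weakest to 87.4% in the strongest of the 5 groups of mean signal, where 2-fold differences were rare. The part of strength in the shares was not tested.

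The balance of the classes varied between chromosomes. On each of the 20 assembled chromosomes with peaks, 72 h only regions outnumbered 36 h only regions, by ratios from 1.11 on chromosome 15 (1416 and 1273 regions) to 2.24 on chromosome 13 (1755 and 782). Chromosomes 10 and 5 followed chromosome 13, with 2.01 and 1.95, and chromosomes 11 and 4 followed chromosome 15, with 1.27 and 1.32. The share of shared regions varied less, from 47.5% on chromosome 13 to 53.6% on chromosome 17, and the median log2 signal ratio of shared regions lay between 0.16 and 0.25 on every chromosome. The share of peaks over raised local background was lower where the ratio was higher. On chromosome 15, 96.3% of 36 h peaks and 96.7% of 72 h peaks stood over a background more than 5% above that of the genome, against 35.6% and 40.7% on chromosome 13. Across the 20 chromosomes, Spearman's rho between the ratio and this share was −0.72 at 72 h and −0.70 at 36 h, a description over chromosomes of the same libraries. Within the regions whose summits stood over raised background the ratio was 1.72 (15728 and 9123 regions), and within those at the genome background it was 1.47 (16834 and 11469). The part of the background in the difference between chromosomes was not tested. On unplaced sequence, 41 regions of 72 h only stood against 53 of 36 h only.

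**Figure D5:**
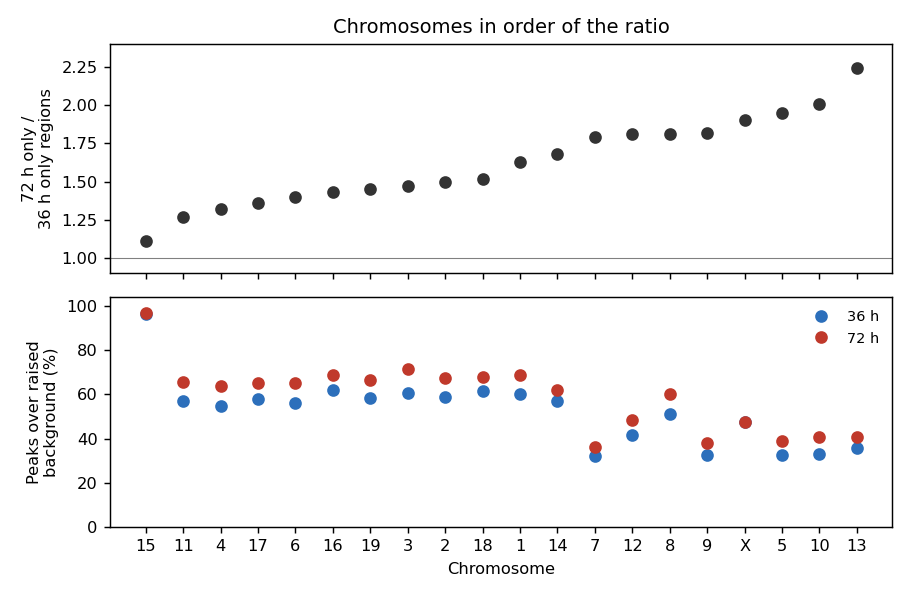
Ratio of 72 h only to 36 h only regions (upper panel) and share of peaks over a local background more than 5% above the genome background at 36 h (blue) and 72 h (red, lower panel, percent), with chromosomes in order of the ratio. Chromosome 15 has the lowest ratio, 1.11, and the highest share, and chromosome 13 the highest ratio, 2.24.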

How the data were processed

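The authors deposited 1 narrowPeak list per H3K27ac library. The submitters' processing notes name the assembly mm9 and the tools BWA, MACS2 and deepTools, without settings. For each peak summit the deposited list gives a fold enrichment (a ratio over local background) and the significance as −log10 p and −log10 q, in the narrowPeak order of columns. The deposited score repeats the −log10 q and was not used. Fold and −log10 q are the authors' own scale for each list. They rank and describe peaks within a list. Cut-offs on them were applied to both lists as alternatives, and the same cut-off need not be equally strict in both.

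Fragments at the summit and background were solved from fold and p, assuming that MACS2 adds 1 to both terms of the fold and takes p from the Poisson tail, settings that the notes do not state. The solving step was tested on data simulated with the same formulas, which cannot show whether these settings were the ones used. Both libraries had recovered genome backgrounds (1.25 fragments at 36 h, 1.08 at 72 h, on the scale of the input). Intervals of shares are Wilson and those of fragment ratios exact binomial. Python 3.11.15, numpy 2.4.6, pandas 2.3.3 and scipy 1.17.1 were used. Input libraries were not analysed here.

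Named regions were the 5 strongest unshared regions of each time by −log10 q, also among those over 5 kb from the other list, the 5 largest differences each way in length, in signal and in cluster length, and the 3 largest runs of each time. The classes, lists and rules were chosen with earlier results of these data known.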

Additional observations from a re-analysis of the deposited data

How the results depend on the processing

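Under 15 alternatives, the ratios of 72 h to 36 h in unshared regions, length under peaks and median width stayed above 1, but the order of the peak numbers turned with a −log10 q of at least 5 (61316 at 36 h, 59273 at 72 h). Of 136 recomputed values, 99 stayed within 1.5 times the reported count or ratio (within the counting interval for shares). Some of the 99 could not move, such as peak numbers when peaks were joined, or 72 h peak numbers when only 36 h was scaled. The margin also held the ratio of unshared regions when it fell from 1.58 to 1.09. The tally is therefore no measure of stability. Joining peaks across gaps of up to 1 kb gave 33214 shared regions, 11089 of 72 h only (7661 of them beyond 5 kb of the other list) and 6175 of 36 h only, and 2659 and 437 regions with at least 2-fold more or less signal at 72 h. A −log10 q of at least 5 gave 16136 regions of 72 h only, 7186 of them far from the other list, 14756 of 36 h only, 5335 of them far, and 2425 and 195 regions with 2-fold differences. A fold of at least 5 gave 36627 shared and 18021 72 h only regions, and 2225 and 219 with 2-fold differences. With peaks of at least 300 bp, an alternative chosen after seeing the data, 18607 regions of 72 h only, 10139 of 36 h only, and 2497 and 377 with 2-fold differences were counted, after reclassing with the shorter peaks left out. Shared regions numbered 38752 at a −log10 q of at least 5 and 37338 with peaks of at least 300 bp. Counts of 2-fold differences are out of the shared regions of each alternative, compared with 55142 in the main setting, so their fall partly follows that number. Without subtraction of the background, 506 regions had 2-fold less signal. Centring the signal gave 2291 and 1777. Clusters with 10 kb numbered 1057 at 36 h and 1241 at 72 h, and 652 and 722 with a gap of 5 kb, and those with 20 kb numbered 303 and 351. Regions of 72 h only beyond 1 kb and 50 kb of the other list numbered 18288 and 2748, and of 36 h only 9366 and 584. No paired analysis was possible because each stage had 1 library. The median unshared peak rested on 15 fragments. Bringing 36 h to the depth of 72 h gave 32620 regions of 72 h only and 20536 of 36 h only, and the part of depth in which weak sites were unshared was not tested further.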
